A study of Homo sapiens with 2 samples.

Results

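The miR-548 family was examined in small RNA sequencing of Jurkat cells, a human T-cell leukemia line. Its members were all entries of the deposited miRNA table whose name begins with miR-548 followed by a letter or a hyphen, and 66 of the 1450 entries (4.55%) met this rule. The study compared 1 sample labelled as overexpressing lnc-CEBPB-13, the lncRNA that the study calls PELATON, with 1 sample labelled as its control. Both were Jurkat cells infected with a lentivirus, carrying PELATON or a control insert, and kept under puromycin selection, so each group is a selected infected culture. Whether it was a clone is not given in the sources used here. The table measures miRNAs only, so the level of PELATON itself could not be read from it, and the direction of every comparison rests on the sample labels. Under these labels miR-10b-5p, miR-1291 and miR-6775-3p, which are outside the family and were followed up in the study, were higher in the overexpression group. miR-10b-5p had normalized counts of 97.2 and 96.1 in the overexpression libraries, against 16.01 and 2.55 in the control libraries, and the log2 ratios of the 3 were 3.25, 1.19 and 2.88. The paper describes these 3 miRNAs as reduced by PELATON overexpression in its sequencing, which is the opposite direction. Should the labels be exchanged, every direction given here would turn round. Each deposited group value is a mean normalized count, that is, reads divided by a size factor for library depth. Each mean resolved into the whole reads of 2 libraries, called A and B within a group. The letters pair nothing between groups, and whether the 2 libraries came from separate cultures is not given in the sources used here. A p-value therefore measures only the spread between these libraries.

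Mature miRNAs are cut from a hairpin precursor, and each hairpin can give a 5p product from its left arm and a 3p product from its right arm. Bases 2 to 8 of the mature miRNA form the seed, which directs pairing with target mRNAs. The miR-548 hairpins are primate-specific and derive from MADE1, a short mariner-type DNA transposon that is almost wholly an inverted repeat, so that a copy read into RNA folds back on itself. Many copies lie in the introns of other genes, and the hairpins differ from each other by few bases.

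A RefSeq mature sequence (GRCh38.p14) was matched for 46 of the 66 members. These 46 gave 44 distinct sequences and 24 seeds. The 5p products with the largest shared seed, AAAGUAA, are shown first with the 5p products k and l, whose seeds end in another base. The seed is in capitals and all sequences run 5′ to 3′.
miR-548b-5p: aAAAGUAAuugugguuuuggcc
miR-548w: aAAAGUAAcugcgguuuuugccu
miR-548ak: aAAAGUAAcugcgguuuuuga
miR-548j-5p: aAAAGUAAuugcggucuuuggu
miR-548k: aAAAGUACuugcggauuuugcu
miR-548l: aAAAGUAUuugcggguuuuguc

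The 3p products shown next are the most abundant one with a sequence, those counted as lower that the text gives in full, miR-548ay-3p with its 2 overexpression libraries far apart, and 1 member of the largest 3p seed group, AAAAACU.
miR-548b-3p: cAAGAACCucaguugcuuuugu
miR-548o-3p: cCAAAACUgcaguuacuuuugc
miR-548bc: aAAAACUGugauuacuuuugc
miR-548u: cAAAGACUgcaauuacuuuugcg
miR-548ay-3p: cAAAACCGcgauuacucuugca
miR-548aq-3p: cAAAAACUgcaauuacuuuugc

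Of the 46 matched members, 10 shared the seed AAAGUAA, all 5p products. It was the seed of 0 of the 1239 other miRNAs with a sequence. The seed AAAAACU was shared by 7 matched members, all 3p products, and again by 0 of those others. As letters anywhere in the mature sequence, AAAGUAA was in 15 of the 24 matched 5p members and 0 of the 22 matched 3p members, against 0 of 1239 other miRNAs. Its reverse complement, UUACUUU, was in 17 of the 22 matched 3p members and 0 of the 5p members, against 2 of 1239 other miRNAs (0.161%). For 8 hairpins both mature products had a sequence, and the facing bases of these could be paired, G-U pairs included. The least paired was miR-548j, at 15 of 20 facing bases, and the most paired was miR-548g, at 21 of 21, with 18 of 20 in miR-548b. The members were poor in G and C, with a median GC content of 34.1% and a range of 15.8% to 54.5%, against a median of 54.2% in the other miRNAs. Only 80 of those 1239 (6.46%) were at or under 34.1%.

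Only 2 seeds of the matched members were found in another miRNA with a sequence, 1 miRNA each. miR-1323 has the seed of miR-548o-3p, and miR-570-5p has the seed AAGGUAA of miR-548ag and miR-548ai. Mature miR-548ai and miR-570-5p are the same molecule by sequence.
miR-548ai: aAAGGUAAuugcaguuuuuccc
miR-570-5p: aAAGGUAAuugcaguuuuuccc

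Their reads were also the same in every library, 2 and 0 in overexpression libraries A and B, against 1 and 4 in control libraries A and B. Within the family, 27 of the 46 matched members had another member at most 1 mismatch away. miR-548w and miR-548ak, shown above, differed at 1 of the 21 bases compared. Identical reads in all 4 libraries were found for miR-548aa and miR-548t-3p (171 reads each), for miR-548c-5p and miR-548o-5p (75 reads each), for miR-548h-3p and miR-548z (50 reads each) and for miR-548aj-5p and miR-548aq-5p (7 reads each). Only sets with at least 5 reads are listed here, and others with fewer reads were found. The values of these members are uncertain, since the same reads may stand in the table more than once. The reverse also occurred. The mature sequence below is common to 3 members, yet their reads differed.
miR-548aj-5p: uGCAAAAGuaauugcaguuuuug
miR-548g-5p: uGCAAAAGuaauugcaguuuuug
miR-548x-5p: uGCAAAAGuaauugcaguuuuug

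miR-548aj-5p had 0 and 6 reads in the overexpression libraries and 0 and 1 in the control libraries. miR-548g-5p had 0 and 2 reads against 0 and 3, and miR-548x-5p had 0 and 2 reads against 0 and 0. How reads that fit several hairpins were assigned is not given in the sources used here.

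The matched members lay at 47 hairpin loci on 20 chromosomes (GRCh38.p14, with genes from GENCODE), although not every chromosome was searched. Of these, 27 were in an intron of a protein-coding gene on the same strand, 6 in such an intron on the opposite strand only, 2 in an intron of a noncoding gene and 12 outside any annotated gene. The b-3p product lay at chr6:119069062-119069083 and the b-5p product at chr6:119069098-119069119, both on the minus strand in an intron of FAM184A. The k product lay at chr11:70283986-70284007 on the plus strand in an intron of PPFIA1, which encodes a liprin scaffold protein. The l product lay at chr11:94466545-94466566 on the minus strand in an intron of MRE11, a nuclease of DNA double-strand break repair. The w product lay at chr16:26025246-26025268 on the plus strand in an intron of HS3ST4, a heparan sulfate sulfotransferase gene. For o-3p there were 2 loci, chr7:102405748-102405769 on the minus strand, opposite to PRKRIP1, and chr20:38516607-38516628 on the plus strand in an intron of RALGAPB. The bc product lay at chr17:39297457-39297477 on the plus strand, opposite to FBXL20. The ay-3p product at chr3:32506305-32506326, on the minus strand, was in no annotated gene.

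The family was a small part of the miRNA pool. Its entries held 1069 and 694 reads in overexpression libraries A and B, against 1689 and 1768 reads in control libraries A and B. This was 0.0521% (exact 95% binomial interval 0.0490 to 0.0553) and 0.0589% (0.0546 to 0.0635) of the miRNA reads in the overexpression libraries, against 0.0646% (0.0615 to 0.0677) and 0.0664% (0.0633 to 0.0696) in the control libraries. Both overexpression libraries were under both control libraries, although the interval of overexpression library B ran past the lower ends of the control intervals. Such intervals cover counting error only. The summed normalized count of the family was 971 and 1075 in the overexpression libraries, against 1352 and 1500 in the control libraries, a log2 ratio of −0.48. Counting entries with identical reads once gave −0.46. Over 2 libraries against 2, the smallest p that an exact permutation test can give is 0.333, so no such test was run on the sum.

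**Figure D1:**
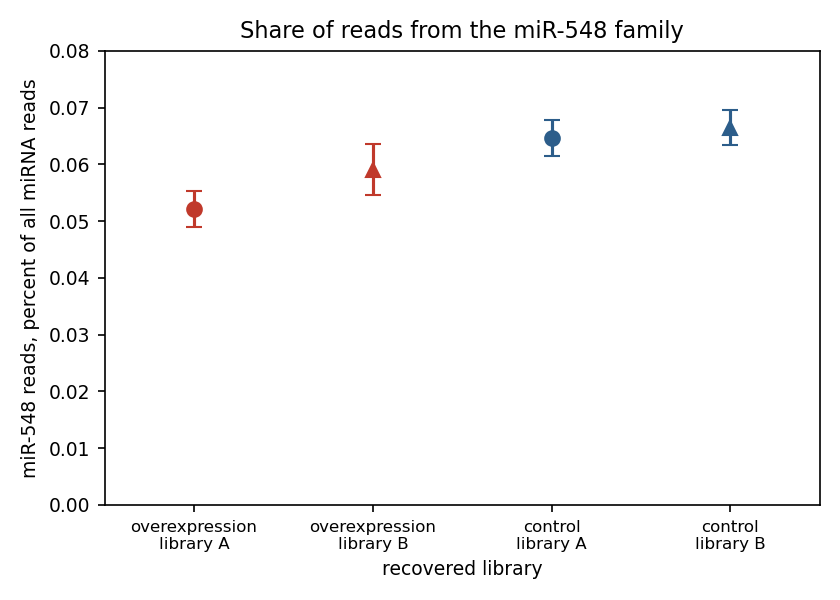
Reads of the 66 miR-548 entries as a percent of all miRNA reads (y axis) in each of the 4 recovered libraries (x axis), with exact 95% binomial intervals. The overexpression libraries were at 0.0521% and 0.0589%, under the control libraries at 0.0646% and 0.0664%.

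A few members carried most of the signal. Of the 66 entries, 3 reached a normalized count of 100 as the mean of both groups, 25 reached 10 and 48 reached 1, while 18 stayed under 1. The median mean was 3.85, against 5.54 over the 1384 other miRNAs. The 12 most abundant entries held 73.0% and 67.4% of the family's reads in the overexpression libraries, against 78.7% and 71.6% in the control libraries. The most abundant member, miR-548b-3p, ranked 257 in the whole table. Reads in all 4 libraries were found for 34 entries, and 16 entries had reads in 1 library only. There were 16 entries with reads in the control libraries alone, none with more than 11 reads, and 3 with reads in the overexpression libraries alone, none with more than 2. Of those 16, 11 had reads in control library B alone. The libraries differed in depth, with 2052494 and 1177485 miRNA reads in the overexpression libraries against 2615868 and 2663279 in the control libraries, and the part of depth in these low counts was not tested.

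The 3 members above 100 were 3p products. miR-548b-3p had normalized counts of 153 and 91.4 in overexpression libraries A and B, against 160 and 180 in the control libraries. With the deposited size factors the groups did not overlap, but overexpression library A lay close to control library A. As a share of all miRNA reads, overexpression library A lay above both control libraries. miR-548a-3p had 70.8 and 80.6 in the overexpression libraries, against 178 and 151 in the control libraries. miR-548e-3p had 90.8 and 89.9, against 115 and 118. In both of these every overexpression library was lower than every control library, by a wider margin in miR-548a-3p.

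The next 5 members were 5p products. miR-548b-5p, from the same hairpin as the leading member, had 57.2 and 62.0 in the overexpression libraries, against 106 and 93.3 in the control libraries. miR-548d-5p had 66.3 and 72.8, against 92.1 and 82.3. Neither of these overlapped between the groups with the deposited size factors, but as a share of all miRNA reads miR-548d-5p did. miR-548ay-5p had 61.8 and 77.5, against 84.1 and 75.5, and miR-548ae-5p had 38.1 and 51.1, against 65.6 and 49.2, so both overlapped. miR-548k was the exception in direction, with 68.1 and 82.1 in the overexpression libraries, against 54.4 and 67.9 in the control libraries, values that nearly touched.

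The other entries among the 12 most abundant were all lower in the overexpression libraries without overlap. miR-548o-3p had 33.6 and 24.8 in the overexpression libraries, against 57.6 and 70.4 in the control libraries. miR-548w had 36.3 and 21.7, against 56.8 and 66.2. miR-548aa and miR-548t-3p, with identical counts of reads, had 16.3 and 35.6, against 47.2 and 60.2. At lower levels the libraries of a group spread further apart. miR-548j-5p, from an intron of the sulfotransferase gene TPST2, had 19.1 and 27.9 in the overexpression libraries, against 11.2 and 34.8 in the control libraries. miR-548ay-3p had 25.4 and 4.65, against 20.8 and 22.1. miR-548bc had 4.54 and 13.9, against 24.8 and 19.5. The first 2 of these overlapped between the groups and miR-548bc did not.

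The remaining members with a mean of at least 10 mostly overlapped. miR-548l had 22.7 and 43.4 in the overexpression libraries, against 27.2 and 28.0 in the control libraries, so that the control libraries lay inside the range of the overexpression libraries. miR-548ad-5p had 25.4 and 41.8, against 52.8 and 28.8. miR-548s, from an intron of the lipid phosphatase gene LPIN1, had 15.4 and 24.8, against 8.005 and 27.2. These 3 show the spread that 2 libraries of a group can have at this level. miR-548c-5p and miR-548o-5p, with identical counts of reads, had 9.08 and 23.2, against 8.81 and 33.1. miR-548am-5p had 8.17 and 12.4, against 8.81 and 23.8, and miR-548d-3p had 9.08 and 17.0, against 5.603 and 13.6. Only 3 of these entries were separate between the groups. miR-548h-3p and miR-548z, with identical counts of reads, had 8.17 and 6.20 in the overexpression libraries, against 16.01 and 14.4 in the control libraries. miR-548aq-3p, from an intron of the RNA-binding protein gene IGF2BP2, had 8.17 and 6.20, against 9.61 and 17.8. Below a mean of 1, miR-548ac lies in an intron of CD58, the ligand of the T-cell receptor CD2, and had 3 reads in control library B and 0 in the other libraries. The same counts were given for miR-548ab, miR-548f-3p and miR-548g-3p.

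**Figure D2:**
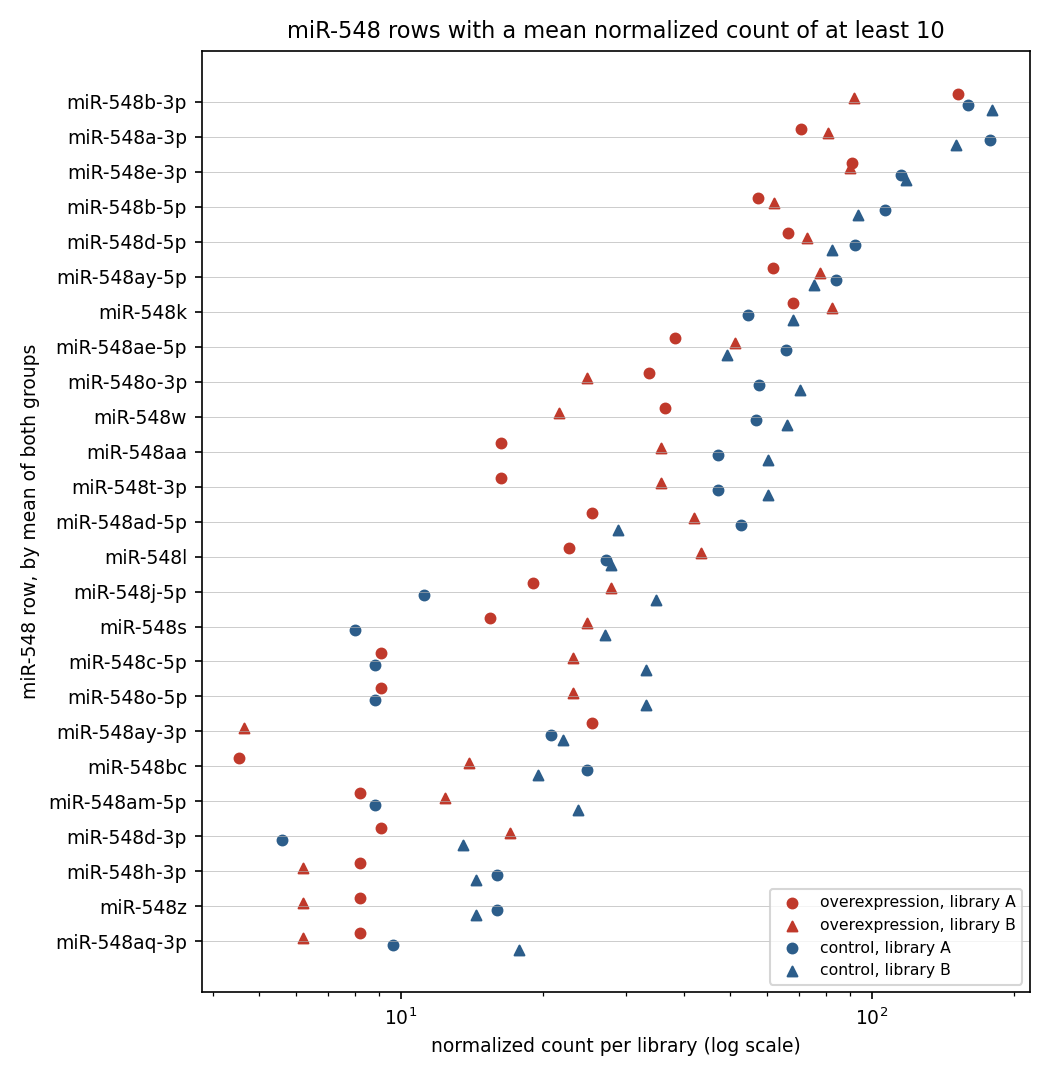
Normalized count in each library (x axis, log scale) of the 25 miR-548 entries with a mean of at least 10 (y axis, highest mean on top). Red points are the overexpression libraries and blue points the control libraries, with circles for library A and triangles for library B. miR-548a-3p, at 70.8 and 80.6 against 178 and 151, shows the groups apart, and miR-548ay-5p, at 61.8 and 77.5 against 84.1 and 75.5, shows them overlapping.

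Arm use was compared next. By name, or by position in the RefSeq hairpin for 17 entries, 35 entries were 5p products and 27 were 3p products, and 4 (miR-548aa, miR-548i, miR-548v and miR-548z) were not assigned. Over the assigned entries, 3p products took 50.3% (exact 95% binomial interval 47.2 to 53.4) and 40.6% (36.9 to 44.5) of the reads in overexpression libraries A and B. The control libraries gave 52.0% (49.6 to 54.5) and 51.9% (49.5 to 54.3). Overexpression library B stood below the other 3 libraries, with an interval under 50%.

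Hairpin names differed widely in the arm they used. A name can cover more than 1 locus, as for miR-548o-3p, and for miR-548a, d and h no locus was matched. A share is therefore not always that of a single hairpin. Both arms were in the table for 18 hairpin names, and in 13 of these the means of both arms summed to at least 10. Among the 13, 6 had more than 50% 3p reads in all 4 libraries (miR-548b, a, e, o, t and h) and 6 had less than 50% in all 4 (miR-548ay, d, ae, j, c and am). miR-548aq was the 1 mixed case. miR-548a gave mostly 3p reads, with 96.3% and 89.7% 3p reads in the overexpression libraries, against 100% and 99.4% in the control libraries. The difference lay in few 5p reads, 3 and 6 in the overexpression libraries against 0 and 1 in the control libraries. miR-548e gave 94.3% and 90.6% 3p reads, against 94.1% and 96.5%. miR-548b used both arms, with 72.7% and 59.6% 3p reads in the overexpression libraries, against 60.1% and 65.8% in the control libraries, and these overlapped.

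On the other side, miR-548d gave 12.05% and 19.0% 3p reads in the overexpression libraries, against 5.74% and 14.2% in the control libraries. miR-548ay gave 29.2% and 5.66%, against 19.8% and 22.6%, so the 2 overexpression libraries lay on either side of the control libraries. miR-548j gave 8.70% and 0%, against 0% and 0%. Its 3p reads were all in 1 library. miR-548o gave 78.7% and 51.6% 3p reads, against 86.7% and 68.0%, and miR-548t gave 66.7% and 95.8%, against 95.2% and 92.2%. The mixed case, miR-548aq, gave 100% and 40% in the overexpression libraries, against 100% and 95.5% in the control libraries, so that overexpression library B stood alone. miR-548aj-5p had the same counts in every library, so the 6 5p reads behind that value may stand in the table more than once. The shares of miR-548o, miR-548c, miR-548t and miR-548h likewise rest on entries whose counts equal those of another member.

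**Figure D3:**
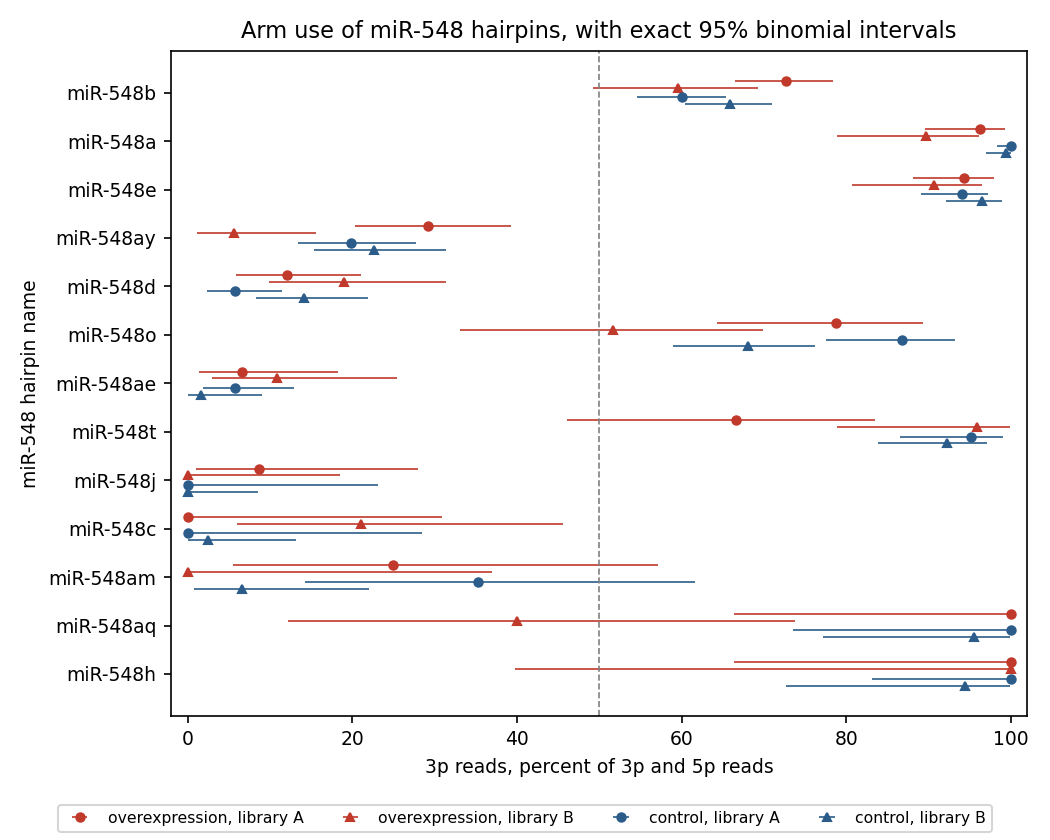
Share of 3p reads among the 3p and 5p reads (x axis, percent) of 13 miR-548 hairpin names (y axis). In each the means of both arms summed to at least 10. Red points are the overexpression libraries and blue points the control libraries, bars are exact 95% binomial intervals, and the dashed line marks 50%. miR-548a, at 96.3% and 89.7% against 100% and 99.4%, stays to the right of the line, and miR-548d, at 12.05% and 19.0% against 5.74% and 14.2%, to the left.

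The groups were then compared over the 48 entries with a mean of at least 1, as the log2 ratio of overexpression over control. A pseudocount of 1 was added to both means, so that differences at low counts come out too small. Their median log2 ratio was −0.36, and 31 of 48 (64.6%) were below 0. Over all 1115 miRNAs with such a mean, the median was 0.06 and 47.0% were below 0. At 2-fold, 5 of the 48 (10.4%) were counted as higher, against 15.6% of all 1115, and 11 (22.9%) were counted as lower, against 14.7% of all 1115. The share counted as higher was under the share over the whole table and the share counted as lower was above it. The filter, the same for all 1115, was on the mean of both groups, so an entry could pass it through 1 group alone. Each of the 5 counted as higher had a control mean under 1. Of those counted as lower, miR-548u, ak, i and n had an overexpression mean under 1. Among the 25 entries with a mean of at least 10, the median was −0.48 with 20 of 25 below 0, against 0.03 over the 588 miRNAs at that level. At that level 0 of 25 were counted as higher, against 8.16% of all 588, and 6 of 25 (24%) as lower, against 9.52% of all 588. Of these 6, miR-548bc had an overexpression mean of 9.24, under that level. The libraries of the groups did not overlap, with overexpression lower, in 13 of the 25 (52%), against 29.8% of all 588, and with overexpression higher in 1 of the 25 (4%), miR-548k, against 28.7% of all 588. Among the 13 are miR-548aa with miR-548t-3p and miR-548h-3p with miR-548z, pairs with identical reads. The counts used the deposited size factors. As shares of all miRNA reads, miR-548b-3p and miR-548d-5p of the 13 overlapped.

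The size of this shift depended on how the libraries were scaled. Scaled to total reads, the median over all 1115 miRNAs moved to 0.27 and that of the family to −0.11. The family median was below 0 under each scaling tried, and miR-548ay-5p was the most abundant entry whose log2 ratio changed sign, −0.19 with the deposited size factors and 0.04 with total reads. Relative to all miRNAs the family stood at −0.42 with the deposited size factors and at −0.38 with total reads. With the deposited size factors, this was −0.15 without control library B and −0.57 without control library A. The split of all calls moved too, with 51.5% of counted miRNAs higher with the deposited size factors and 65.3% with total reads. Under total reads 6 of the 48 members (12.5%) were counted as higher, against 20.1% of all 1115, and 4 (8.33%) as lower, against 10.7% of all 1115, so that the share counted as lower was no longer above that of the table. None of the 6 lower members with a mean of at least 10 was among the 4. Without control library B the family median was −0.08, and 12 members (25%) were counted as higher, against 19.3% of all 1115, and 8 (16.7%) as lower, against 12.6% of all 1115. The share counted as higher was then above that of the table. Without overexpression library B, 2 (4.17%) were counted as higher, against 12.9%, and 12 (25%) as lower, against 17.5%.

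By limma, a moderated linear model fitted over all 1115 miRNAs with Benjamini-Hochberg adjustment, 0 of the 48 entries were higher and 0 were lower at an adjusted p under 0.05, against 1.88% and 3.05% of all 1115. At an unadjusted p under 0.05, 0 were higher and 9 (18.8%) were lower, against 8.43% and 10.1% of all 1115. The 9 were miR-548a-3p, o-3p, w, b-5p, n, u, t-3p, aa and ak, and those of t-3p and aa rest on identical counts of reads. miR-548a-3p came nearest, with a log2 difference of −1.11 (SE 0.27, limma adjusted p = 0.0614), lower in 2 of 2 overexpression libraries than in either control library. Its adjusted p ranged from 0.0245 to 0.421 over the other settings, and it passed with a pseudocount of 5 (0.0432), with only miRNAs of a mean of at least 10 (0.0325) and with upper-quartile scaling (0.0245). For miR-548b-5p the difference was −0.73 (SE 0.30, limma adjusted p = 0.236), and for miR-548b-3p, from the other arm of that hairpin, −0.52 (SE 0.31, limma adjusted p = 0.439).

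The 6 members with a mean of at least 10 that were counted as lower were miR-548a-3p (log2 ratio −1.11), miR-548o-3p (−1.11), miR-548w (−1.06), miR-548aa and miR-548t-3p (−1.02, on identical counts of reads) and miR-548bc (−1.18). By reads, miR-548a-3p stood at 0.452 of its control level (exact 95% interval 0.368 to 0.552). That interval pools the 2 libraries of each group and covers counting error only, not the spread between libraries. Each of the 6 lay near the 2-fold line, and each went under it without 1 library or another. miR-548a-3p was at −0.99 without control library A. miR-548o-3p was at −0.91 without overexpression library B and −0.96 without control library B, and miR-548w was at −0.74 and −0.95 without those same libraries. miR-548aa and miR-548t-3p were at −0.58 without overexpression library A and −0.84 without control library B, and at −1.66 without overexpression library B. miR-548bc was at −0.63 without overexpression library A and at −2.06 without overexpression library B. In all of these the overexpression group stayed below the control group.

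The members counted at 2-fold with lower means had few reads. miR-548n had 1 and 0 reads in the overexpression libraries, against 5 and 10 in the control libraries. miR-548u had 0 and 0 reads, against 3 and 8, and miR-548ak had 0 and 0, against 4 and 5. With the overexpression group taken at a floor of 3 reads over its 2 libraries, miR-548u was at least 2.67-fold lower and miR-548ak at least 2.17-fold lower. miR-548i was at 0 reads in 3 libraries and 5 in control library B, and by the same floor it was at least 1.23-fold lower, which does not reach 2-fold. miR-548ar-3p had 2 and 1 reads, against 1 and 11. The 5 counted as higher all had a mean under 10. miR-548a-5p had 3 and 6 reads in the overexpression libraries, against 0 and 1 in the control libraries, the only 1 of the 5 without overlap. miR-548al had 17 and 0 reads, against 0 and 2. miR-548aj-5p and miR-548aq-5p had 0 and 6 reads each, against 0 and 1, and miR-548c-3p had 0 and 4, against 0 and 1. Each of the last 4 owed its overexpression reads to 1 library.

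**Figure D4:**
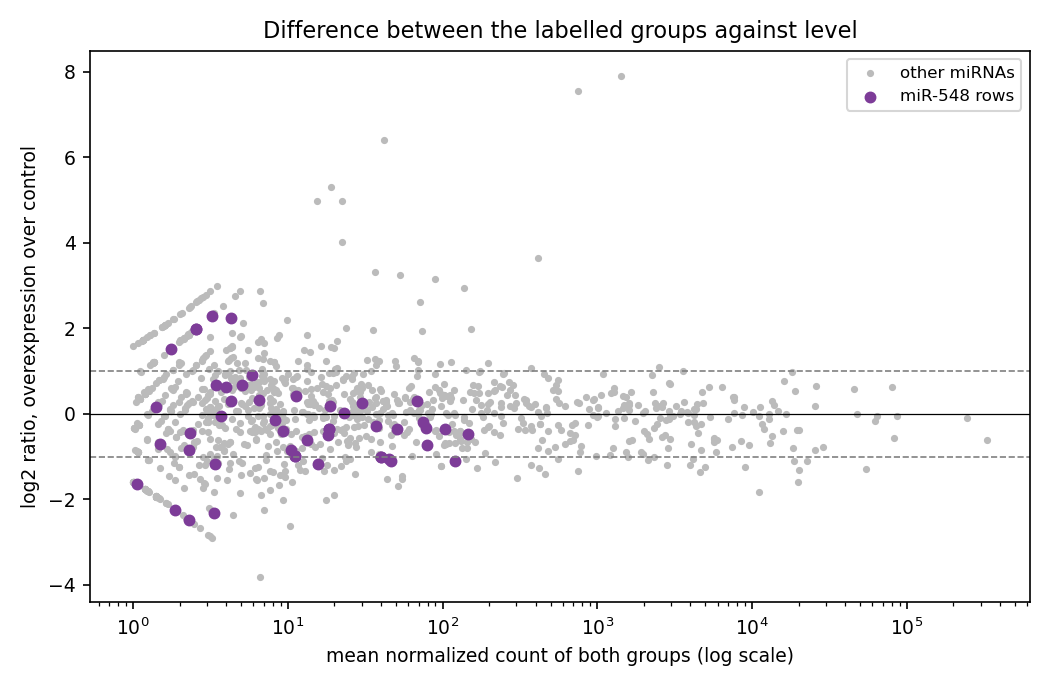
Log2 ratio of overexpression over control (y axis) against the mean normalized count of both groups (x axis, log scale) for the 1115 miRNAs whose mean reached 1. The 48 miR-548 entries are in purple, other miRNAs in grey, and dashed lines mark 2-fold. Among entries with a mean of at least 10, 6 miR-548 entries lie at or under the lower line and 0 above the upper one.

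Arms and seeds were set side by side. The 19 3p entries with a mean of at least 1 had a median log2 ratio of −0.48, with 2 counted as higher and 6 as lower. The 26 5p entries had −0.23, with 3 counted as higher and 3 as lower. Over all 1115 miRNAs with such a mean, 15.6% were counted as higher and 14.7% as lower. At a mean of at least 10 the medians were −0.85 over 11 3p entries and −0.34 over 12 5p entries, and the difference between arms was not tested. Scaled to total reads, the 5p median was −0.09 and the 3p median −0.62 at that level. Summed over its 10 matched members, the seed AAAGUAA had normalized counts of 114 and 124 in the overexpression libraries. The control libraries had 179 and 204, without overlap. Within that seed the direction was not common to all members, since miR-548b-5p and miR-548w were lower and miR-548j-5p overlapped. The 7 matched members with the seed AAAAACU summed to 20.9 and 18.6, against 22.4 and 25.5. The 20 members without a sequence could not be assigned a seed and are in neither sum. They include the abundant 5p entries miR-548d-5p, miR-548ay-5p and miR-548ae-5p.

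Base composition moved with the difference. Among other miRNAs with a mean of at least 1 and a GC content at or under the family's median of 34.1%, 57 were measured, their median log2 ratio was −0.33 and 42 were below 0. Of these 57, 5 were counted as higher and 18 as lower at 2-fold. The 886 other miRNAs with a higher GC content had a median of 0.07, with 142 counted as higher and 122 as lower. The part of base composition in the family's difference was not tested.

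Related transposon-derived miRNAs differed among themselves. Of the relatives from MADE1, miR-579-5p had 21.8 and 52.7 in the overexpression libraries, against 29.6 and 36.5 in the control libraries, and miR-579-3p had 5.45 and 15.5, against 18.4 and 17.0. The first overlapped between the groups and the second did not. miR-570-3p had 6.36 and 7.75, against 6.40 and 1.70. None of the 4 MADE1 relatives passed limma, with adjusted p from 0.589 to 0.971. Of miRNAs from other transposons, miR-1273c had 48.1 and 55.8 in the overexpression libraries, against 26.4 and 15.3 in the control libraries, a log2 ratio of 1.28 (limma adjusted p = 0.168). It was the only 1 of the 6 listed that was counted at 2-fold, none passed limma, and the other log2 ratios lay between −0.04 and 0.68.

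Markers of other cells were read beside these results. The 7 blood-lineage miRNAs listed were all present, with summed normalized counts of 364809 and 344250 in the overexpression libraries, against 369512 and 391834 in the control libraries, and none was counted at 2-fold. Of 8 muscle miRNAs listed, 6 were in the table and 5 were counted as higher. They summed to 4105 and 4925 in the overexpression libraries, against 56.0 and 33.1 in the control libraries, where miR-133a-5p, miR-133b and miR-206 were at 0. Their part in the miR-548 results was not tested.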

How the data were processed

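Small RNA sequencing was carried out in Jurkat cells with 1 sample per group. The methods describe a small RNA library kit and the sample labels a kit for mRNA. All deposited entries are mature miRNAs. Per the methods and the submitters' processing notes, the authors divided reads by DESeq size factors on build GRCh38.p14. The aligner, trimming and miRNA annotation are not given in the sources used here. The deposited signal values are group means of normalized counts. The other deposited columns hold the authors' own comparison and were not used: a fold ratio of control over overexpression, the log2 of it, and the p-value before and after adjustment.

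Each deposited signal value was resolved into whole reads of 2 libraries (relative tolerance 1e-12), with 1 solution for each of 1450 miRNAs in both groups. The size factors were 1.10 and 0.645 for the overexpression libraries and 1.25 and 1.18 for the control libraries, and factors recomputed from 788 miRNAs were the same. The limma test was planned on these library values, with no test to be run if they could not be recovered. Log2 values took a pseudocount of 1. Entries with a mean of at least 1 were counted at 2-fold and tested by limma 3.58.1 in R 4.3.3, with a trended prior and Benjamini-Hochberg adjustment. Intervals were exact 95% binomial intervals (scipy 1.17.1). For a fold value, a group at 0 reads was set at 3 reads over its 2 libraries. Recovery and limma were tested on simulated data. Sequences and coordinates came from RefSeq and host genes from GENCODE, both on GRCh38. Named were the 12 most abundant members, those counted at 2-fold, both arms of the 13 hairpins, members with identical reads or sequences, and transposon relatives. The members and lists were chosen with earlier results of these data known. Scaling, pseudocount, filters, fold threshold, counting of identical reads and each library left out were tried as alternatives.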

Additional observations from a re-analysis of the deposited data

How the results depend on the processing

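With the deposited size factors 5 miR-548 entries were counted as higher and 11 as lower at 2-fold. These were 10.4% and 22.9% of the 48 entries, against 15.6% and 14.7% of all miRNAs. Scaling to total reads, with or without the 10 most abundant miRNAs, gave 6 higher (12.5%) and 4 lower (8.33%). Of all miRNAs, 20.1% and 19.9% were then higher, and 10.7% and 10.9% lower. A pseudocount of 5 gave 2 higher (4.17%) and 3 lower (6.25%), against 5.74% and 5.11% of all miRNAs. A mean of at least 10 gave 0 and 6 of 25, against 8.16% and 9.52% of all 588. A 1.5-fold threshold gave 9 and 18, and a 4-fold threshold 2 and 3. For these thresholds the share of all miRNAs is not given here. Leaving out each library gave 2 to 12 higher and 8 to 16 lower. The family's shares were 4.17% to 25% and 16.7% to 33.3%, against 12.9% to 21.1% and 12.6% to 23.9% of all miRNAs. The log2 ratio of the summed family was −0.24 scaled to total reads, −0.25 without the 10 most abundant miRNAs and −0.61 with upper-quartile scaling. The 3p share of the family's level was 48.7%, against 57.3% over hairpins with both arms and 41.4% without the most abundant entry. By limma, 1 entry, miR-548a-3p, was lower with a pseudocount of 5, a mean of at least 10 or upper-quartile scaling (chosen after seeing the data), and 9 were lower at an unadjusted p under 0.05. Without overexpression library B the log2 ratios of miR-548aq-5p and miR-548c-3p were −0.51, on the other side of 0. Without overexpression library A they were 2.85 and 2.34. The cause was not tested. Of 306 values of named miRNAs under other settings, 265 moved by less than the spread between libraries. The settings include leaving out each library, where the shift is itself tied to that spread, so the count is no independent measure of stability. Entries with identical reads were counted separately. The correction for GC content was not run, since only 69.7% of the entries had a sequence. No paired analysis was possible because the labels give 1 sample per group and the library letters pair nothing.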
